A study of Mus musculus with 2 samples.

Results

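The genes described here encode survival receptors of the TNF receptor family on B cells and the adaptors that relay their signals: the receptors Tnfrsf13b, Tnfrsf13c and Cd40, the TRAF adaptors Traf2, Traf3, Traf5 and Traf6, the cIAP ubiquitin ligases Birc2 and Birc3, and Tnfaip3, which encodes A20. They were chosen by name as 10 members of one pathway, and every probe set annotated to 1 gene with such a symbol was taken from the deposited table. Of the 10 genes, 9 had such a probe set, 13 probe sets in all among 22626 on the array; Traf3 was not analysed here. A floor was set at the median signal of both arrays, 12.7, since dimmer MAS5 signals have no dependable order. All 13 probe sets were above it on at least 1 array, so all 9 genes counted as measured, among 7695 measured genes.

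Marginal zone (MZ) B cells, which sit at the marginal sinus of the spleen and were sorted as CD21 high and CD23 intermediate, were set against follicular (FO) B cells, the circulating B cells of the follicles, sorted as CD21 intermediate and CD23 high. Both came from the spleens of wild-type female C57BL/6 mice, 3 mice being named for each sample; the labels give no age and do not say whether the same mice gave both samples. B cells were first enriched with magnetic beads against B220, an isoform of the CD45 protein, and sorted cells were pooled before lysis, so differences between mice cannot be seen. There was 1 Affymetrix array of each population. Replicate error and tests between the populations are therefore out of reach, and differences are described by their size.

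BAFF, a cytokine of the TNF family, keeps mature B cells alive through BAFF-R, the product of Tnfrsf13c, while CD40 receives the CD40 ligand of activated T cells. In a resting B cell, TRAF2, TRAF3 and the cIAP proteins form a complex that marks the kinase NIK, the product of Map3k14, for degradation. An engaged receptor draws TRAF3 and its partners to its tail, NIK accumulates, and the NF-kB precursor encoded by Nfkb2 is processed to its active form. A20 restrains the other, canonical branch of NF-kB signalling by editing ubiquitin chains.

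The cIAP genes, Traf5 and the BAFF-R gene Tnfrsf13c had lower signals in MZ than in FO cells, and Cd40 had a higher one. Traf2, Traf6, Tnfrsf13b and Tnfaip3 differed by less than probe sets of 1 gene differ among themselves. Of the 9 genes, 2 were at least 2-fold lower in MZ cells, Traf5 and Birc3, and 0 were at least 2-fold higher. Among all 7695 measured genes, 4.39% were at least 2-fold higher in MZ cells and 4.86% at least 2-fold higher in FO cells. The 2 genes are 22.2% of the 9, but a share of so few genes, named with earlier results known, carries no test. The median log2 ratio of MZ over FO signal was -0.42 over the 9 genes and -0.03 over all measured genes. Lower in MZ cells were 6 of the 9 genes, and 52.2% of all measured genes. Each gene is represented by its brightest probe set, and the others are given below. Signals are scaled MAS5 intensities and are compared only between arrays for the same probe set, since probe sets differ in how brightly they report a transcript.

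The nearest measure of error is how far several probe sets of a gene differ. Their log2 ratios differed with an SD of 0.43, over 2622 genes with several measured probe sets. This SD covers probe behaviour alone and leaves out variation between mice, sorts and labelling reactions. Of the 9 genes, 5 had a log2 ratio larger in size than this SD: Traf5, Birc3, Cd40, Birc2 and Tnfrsf13c. Ratios of about this size were common. On the lower side alone, 23.1% of all measured genes were as low as Traf2, at -0.42, or lower. The middle 95% of all measured genes ran from -1.24 to 1.19 on the log2 scale, and of the 9 genes only Traf5 lay outside it, by a small margin.

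**Figure D1:**
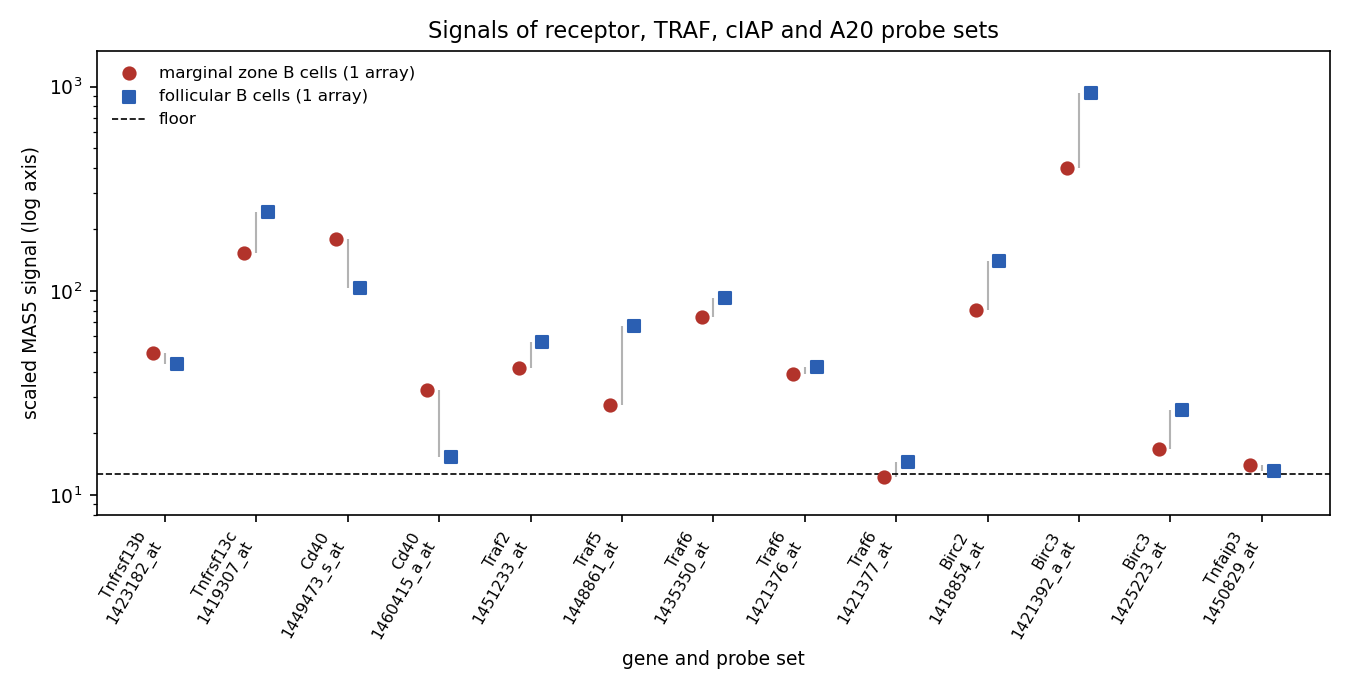
Scaled MAS5 signal on a log axis of each of the 13 probe sets, with the marginal zone array as circles and the follicular array as squares; the dashed line is the floor of 12.7. Birc3, Birc2, Traf5 and Tnfrsf13c sit lower in MZ cells and both Cd40 probe sets sit higher; heights of different probe sets are not comparable.

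Among the receptors, Cd40 was the one with the higher signal in MZ cells on both of its probe sets. The brighter probe set, 1449473_s_at, had a signal of 179.9 in MZ and 103.5 in FO cells, 1.74-fold higher in MZ cells (log2 ratio 0.80). The dimmer one, 1460415_a_at, was at 32.7 in MZ and 15.3 in FO cells, 2.14-fold higher (log2 ratio 1.10). The probe sets therefore lay on either side of the 2-fold threshold and 0.30 apart on the log2 scale, within the SD between probe sets. Of the 13 probe sets, 1 was past 2-fold toward MZ cells and 2 toward FO cells, where 4.36% and 5.02% of 11671 measured probe sets of 1 gene were. Of all measured genes, 7.97% had a log2 ratio as high as that of the brighter Cd40 probe set or higher.

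CD40 is also made by macrophages, so macrophage and monocyte markers are given beside it. Of 16 with a probe set, 9 were measured: 3 were above the floor on both arrays, 5 in MZ cells alone and 1 in FO cells alone. The direction of the last 6 was fixed by the floor, so it is not counted. Of the 3 above it on both arrays, Csf1r, a macrophage growth factor receptor, was at 42.5 in MZ and 17.3 in FO cells, with 3 probe sets from 0.17 to 1.70 on the log2 scale. Lyz2, which encodes lysozyme, was at 25.2 in MZ and 12.9 in FO cells, and Adgre1, a macrophage surface gene, at 24.9 and 23.8. Cd5l, at 26.7 in MZ and 11.1 in FO cells, was above the floor in MZ cells alone. So was 1 of 3 probe sets of C1qb, a complement chain, at 24.6 and 2.93, while the other 2 did not exceed the floor on either array. With lower values raised to the floor, the brightest probe sets of the 9 genes summed to 208.6 in MZ and 130.6 in FO cells. The 5 genes above the floor in MZ cells alone are part of these sums, so no direction is read from the sums. C1qa, C1qc, Marco, Siglec1, Mertk, Fcgr1 and Hmox1 did not exceed the floor on either array. Adgre1 and these 7 genes were picked once their values were known. The part of these cells in the Cd40 difference was not tested, and in a bulk sample the number of cells of a type cannot be told apart from the RNA per cell.

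Tnfrsf13c, the BAFF-R gene, went the other way. Its single probe set, 1419307_at, had a signal of 152.9 in MZ and 243 in FO cells, 1.59-fold lower in MZ cells (log2 ratio -0.67). Of all measured genes, 12.8% had a ratio this low or lower. Tnfrsf13b encodes TACI, which binds BAFF and the related cytokine APRIL. Its probe set 1423182_at was at 49.3 in MZ and 44.0 in FO cells, a log2 ratio of 0.17, less than the SD between probe sets. The receptors thus gave 1 lower, 1 nearly equal and 1 higher signal in MZ cells.

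The 3 measured TRAF adaptors all leaned lower in MZ cells, Traf5 past 2-fold and Traf2 and Traf6 by little. Traf5 encodes an adaptor that binds CD40 and other receptors and overlaps in function with TRAF2. Its probe set, 1448861_at, was at 27.4 in MZ and 67.1 in FO cells, 2.45-fold lower in MZ cells (log2 ratio -1.29). Of all measured genes, 168, or 2.18%, had a ratio this low or lower. Traf5 rests on 1 probe set, and its MZ signal was 27.4 against a floor of 12.7. With a higher floor, at the 75th percentile of all signals, its log2 ratio was -0.55 and it no longer reached 2-fold; with a pseudocount added instead of a floor it was -0.99.

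Traf2, the adaptor that brings the cIAP proteins to the receptors, was at 41.9 in MZ and 55.9 in FO cells on its probe set 1451233_at. Its log2 ratio of -0.42 was just under the SD between probe sets. Traf6, an adaptor shared by CD40 and the Toll-like receptors, had 3 probe sets with ratios from -0.32 to -0.13. The brightest, 1435350_at, was at 74.1 in MZ and 92.3 in FO cells. The next, 1421376_at, was at 39.0 in MZ and 42.5 in FO cells, and 1421377_at was at 12.2, below the floor, and 14.6. All 3 leaned the same way by less than the SD between probe sets, so Traf6 shows no difference that this pair of arrays can resolve.

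The cIAP genes were both lower in MZ cells. Birc3, which encodes cIAP2 and is itself induced by NF-kB, had a signal of 397.9 in MZ and 932.5 in FO cells on probe set 1421392_a_at. This was 2.34-fold lower in MZ cells (log2 ratio -1.23), and 199 of all measured genes, 2.59%, had a ratio this low or lower. Its dimmer probe set, 1425223_at, was at 16.8 in MZ and 26.1 in FO cells, 1.55-fold lower (log2 ratio -0.63). Both probe sets thus had the same direction, but the mean of their log2 ratios, -0.93, did not reach 2-fold.

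Birc2, which encodes cIAP1, was at 80.7 in MZ and 139.8 in FO cells on its probe set 1418854_at, 1.73-fold lower in MZ cells (log2 ratio -0.79). Of all measured genes, 9.21% had a ratio this low or lower. Birc2 and Birc3 are paralogs that lie side by side on chromosome 9, with 0 annotated genes between them in GRCm38.p6. Whether their probe sets respond to each other's transcript was not tested, so they may not be separate measurements.

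Tnfaip3, the A20 gene, is a classical target of NF-kB and feeds back on it. Its probe set 1450829_at was at 13.96 in MZ and 13.04 in FO cells, both barely above the floor, with a log2 ratio of 0.10. At such signals a difference could not be detected, so these arrays leave its expression in both populations unresolved.

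**Figure D2:**
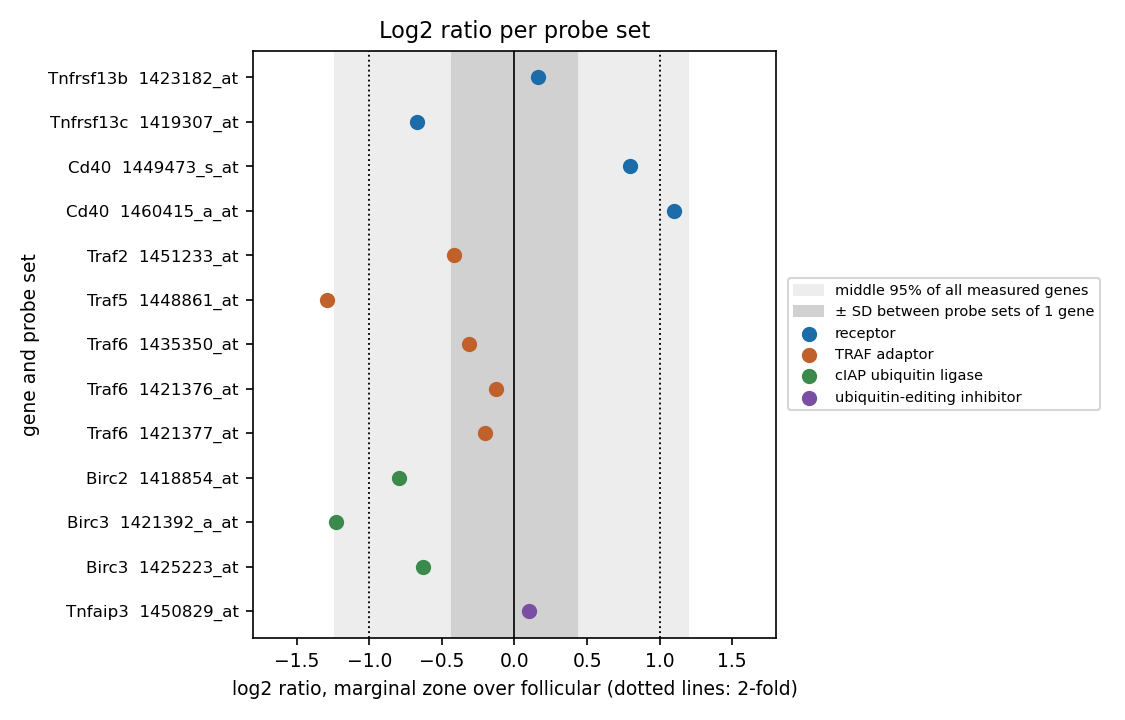
Log2 ratio of MZ over FO signal for each of the 13 probe sets, coloured by role; the dark band is the SD of 0.43 between probe sets of 1 gene, the light band the middle 95% of all measured genes, and dotted lines mark 2-fold. Traf5 and the brighter Birc3 probe set lie past 2-fold to the left and the dimmer Cd40 probe set past 2-fold to the right.

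The sequences before the start sites of Traf5 and Birc3, the genes past 2-fold, and of the NF-kB target Tnfaip3 are shown to compare their letters. They are from RefSeq in build GRCm38.p6, and each is written on its own strand up to the base before the annotated gene. A window before a start site was available for 9 of the 10 genes, all but Cd40. The Traf5 stretch is chr1:192092600-192092849, that of Birc3 chr9:7873206-7873420 and that of Tnfaip3 chr10:19015411-19015660, all on the minus strand. Capitals mark a match to the 10-base NF-kB consensus site on either strand.
Traf5: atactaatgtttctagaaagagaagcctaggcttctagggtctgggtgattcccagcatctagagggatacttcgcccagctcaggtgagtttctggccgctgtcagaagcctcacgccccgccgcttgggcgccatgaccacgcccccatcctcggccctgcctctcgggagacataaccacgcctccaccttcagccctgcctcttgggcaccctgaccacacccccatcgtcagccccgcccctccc
Birc3: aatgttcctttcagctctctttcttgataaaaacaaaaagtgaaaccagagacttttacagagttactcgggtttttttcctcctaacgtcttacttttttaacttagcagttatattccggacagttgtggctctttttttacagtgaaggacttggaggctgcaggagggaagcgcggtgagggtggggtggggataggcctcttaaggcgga
Tnfaip3: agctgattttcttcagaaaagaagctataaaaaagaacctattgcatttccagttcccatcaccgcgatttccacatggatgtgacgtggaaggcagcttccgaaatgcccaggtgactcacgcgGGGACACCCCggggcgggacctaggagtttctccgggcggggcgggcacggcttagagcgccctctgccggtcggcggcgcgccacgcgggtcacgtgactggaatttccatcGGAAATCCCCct
The Tnfaip3 window shown held 2 matches in its 250 bases, beginning 125 and 12 bases before the start site. A second Tnfaip3 window, before a start site within the annotated gene, held 0. The windows of Traf5 and Birc3 held 0. The search also took in the last 35 bases before the Birc3 start site, which lie within the annotated gene and are not printed. A match was found in 3.90% of 32851 mouse windows of 250 bases searched in the same way. Among the 9 genes with a window, 2 of 11 windows had a match, that of Traf3 and the Tnfaip3 window shown. The Traf3 match began 10 bases before the start site, within the annotated gene. G and C made up 62.0% of the Traf5, 44.2% of the Birc3 and 58.8% of the Tnfaip3 stretch. A match is only a likeness of letters, and its absence says only that these letters are not in this window.

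The rest of the pathway was examined through 5 lists that together named 123 further genes, of which 76 were measured. At least 2-fold higher in MZ cells were 4 of the 76 (5.26%), Tank, Map3k5, Myc and Ebi3, and at least 2-fold higher in FO cells were also 4 (5.26%), Tnfrsf1a, Itch, Fcer2a and Bcl3. These shares are near those of all measured genes, 4.39% and 4.86%. Fcer2a is counted in the share higher in FO cells although its protein, CD23, was part of the sort gate. The median log2 ratio of the 76 was -0.08, and 47 of them were lower in MZ cells, against -0.03 and 52.2% over all measured genes. Some of these calls ended under an alternative: with the floor at the 75th percentile the log2 ratio was 0.78 for Map3k5 and 0.04 for Ebi3, and with a pseudocount added to each signal it was -0.78 for Tnfrsf1a, -0.90 for Itch and 0.83 for Ebi3. With the higher floor Itch was at -0.76, and Tnfrsf1a and Bcl3 were no longer measured.

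Ligands of the TNF family were mostly at background. Of 14 with a probe set, 4 were measured and 0 reached 2-fold, with a median log2 ratio of -0.07. Ltb, which encodes lymphotoxin beta, a signal by which B cells organise splenic tissue, was at 98.2 in MZ and 102.9 in FO cells. Tnfsf4, the ligand of OX40, was at 16.9 in MZ and 19.3 in FO cells. Lta, at 8.41 and 13.3, and Fasl, at 11.5 and 12.7, were below the floor in MZ cells. Tnfsf13b, the BAFF gene, stood at 1.68 in MZ and 0.71 in FO cells, and Cd40lg at 2.67 and 2.83, all below the floor; both were chosen after their values were seen.

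Of 20 other TNF receptors with a probe set, 9 were measured, with a median of 0.20, 1 at least 2-fold lower and 0 at least 2-fold higher in MZ cells. Tnfrsf1a, which encodes the first TNF receptor, was below the floor at 11.6 in MZ and at 29.1 in FO cells, at least 2.30-fold lower in MZ cells. Tnfrsf12a, the receptor of TWEAK, was at 60.5 in MZ and 34.7 in FO cells, 1.74-fold higher by its brighter probe set. Its other probe set had a log2 ratio of 0.38. Tnfrsf21 was at least 1.48-fold higher, at 18.8 in MZ and below the floor at 7.98 in FO cells. Tnfrsf1b, the second TNF receptor gene, was at 114.7 in MZ and 83.6 in FO cells by its brighter probe set (log2 ratio 0.46), but its other probe set was at -0.64. Tnfrsf18 and Tnfrsf4, which encode GITR and OX40, had log2 ratios of 0.25 and 0.20. Tnfrsf17, which encodes BCMA, the further receptor for BAFF and APRIL, was below the floor on both arrays, at 1.09 in MZ and 1.21 in FO cells; it was chosen after its values were seen.

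Among 24 measured genes of other TRAF and IAP proteins and of partners of A20, 1 was at least 2-fold higher and 1 at least 2-fold lower in MZ cells, with a median of -0.04. The gene past the threshold in MZ cells was Tank, whose product binds TRAF proteins and the kinase TBK1. It was at 355 in MZ and 105.6 in FO cells, 3.36-fold higher on its single measured probe set (log2 ratio 1.75). Itch, a ubiquitin ligase that works with A20, was at 35.8 in MZ and 77.6 in FO cells, 2.17-fold lower. Otud7b, a deubiquitinase of TRAF3, was at 19.5 in MZ and 35.5 in FO cells, 1.82-fold lower. Tnip1, an A20-binding inhibitor, was at 177.7 in MZ and 318.9 in FO cells, 1.79-fold lower. Rnf11, a RING protein of the A20 complex, was at 73.2 in MZ and 44.9 in FO cells, 1.63-fold higher by its brighter probe set. Its other probe set had a log2 ratio of 0.17. Diablo, an antagonist of IAP proteins, had 1 probe set at 0.85 and another at -0.78 on the log2 scale.

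The list of NF-kB kinases and subunits had a median log2 ratio of -0.33, and 14 of its 18 measured genes were lower in MZ cells. Over all measured genes the median was -0.03 and 52.2% were lower. In the list, 0 genes were at least 2-fold lower and 1 at least 2-fold higher. The list also holds genes that are neither kinases nor subunits, such as Tnfaip2 and Otud7b, the latter counted among the A20 partners as well. Map3k14, the NIK gene, was at 14.4 in MZ and 24.5 in FO cells, 1.70-fold lower, and its probe sets had log2 ratios of -0.77 and -0.70. Map3k1 was at 198.1 in MZ and 342.3 in FO cells, 1.73-fold lower, and Map3k8 at 56.2 and 96.9, 1.72-fold lower. Map3k5, the stress kinase ASK1, was the gene past the threshold, at 78.6 in MZ and 30.4 in FO cells, 2.58-fold higher. Tnfaip2 was at least 1.91-fold higher, at 24.3 in MZ and below the floor at 7.38 in FO cells. The subunits of the NIK branch, Nfkb2 and Relb, chosen after their values were seen, were at 60.4 and 76.6 in MZ and at 83.1 and 99.2 in FO cells, with log2 ratios of -0.46 and -0.37. The second probe set of Nfkb2 was at -0.95.

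Target genes of NF-kB in B cells went both ways. Of 22 measured, 2 were at least 2-fold higher and 2 at least 2-fold lower in MZ cells. Lower there by any amount were 14, and the median log2 ratio was -0.28, against 52.2% and -0.03 over all measured genes. Fcer2a, which encodes CD23 and was used to sort the cells, was at 89.6 in MZ and 726.8 in FO cells; its protein was part of the gate, so this difference is no finding between the sorted cells. Bcl3, a partner of NF-kB subunits, was below the floor at 11.8 in MZ and at 37.9 in FO cells, at least 2.99-fold lower. Myc, a growth regulator, was at 196.8 in MZ and 78.6 in FO cells, 2.50-fold higher, and Ebi3, a cytokine subunit, at 47.1 and 20.9, 2.25-fold higher. Cd83, an activation marker, was at 1178 in MZ and 2262 in FO cells, 1.92-fold lower, and Icosl, a ligand for T cells, at 18.6 and 35.0, 1.88-fold lower.

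**Figure D3:**
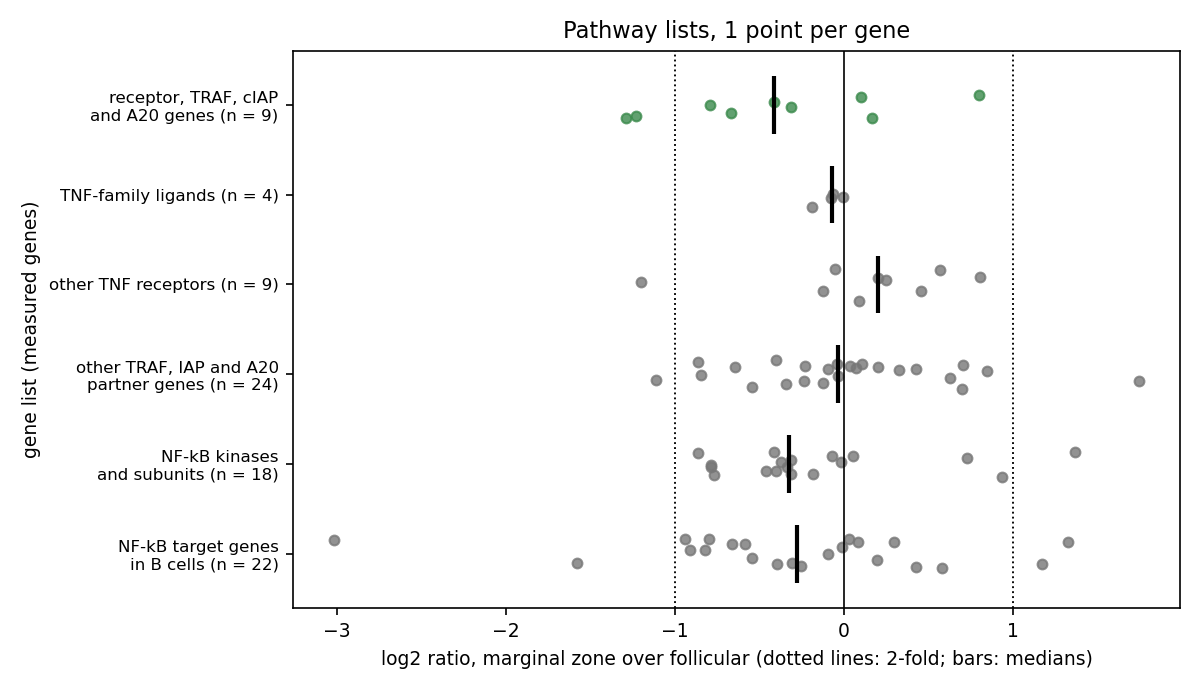
Log2 ratio of MZ over FO signal, 1 point for each measured gene, for the 9 receptor, TRAF, cIAP and A20 genes and the 5 further lists; black bars are medians and dotted lines mark 2-fold. Most points lie within 2-fold, and the medians run from -0.42 to 0.20.

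The labels fitted the transcripts of the sort markers: Cr2, which encodes CD21, was at 889.9 in MZ and 277.9 in FO cells, Fcer2a had the values above, and Ptprc, the B220 gene, was at 1987 and 1901. All 8 measured B cell markers were above the floor on both arrays. All 8 measured marginal zone markers, led by Cd9, Myof, Cd36 and Cd1d1, were at least 2-fold higher in MZ cells. Of 9 follicular markers, 6 were at least 2-fold lower, led by Fcer2a, Bach2, Il4ra and Itgb7. These lists were chosen with earlier results of these data known and include the sort genes Cr2 and Fcer2a. Their counts are therefore no independent check of the labels. Of 12 T and NK cell markers with a probe set, 5 were measured, with 2 above the floor on both arrays, and of 8 dendritic cell markers 3, with 1 above it on both. Of 11 granulocyte, platelet and erythroid markers 5 were measured, with 1 above the floor on both arrays. Of 10 plasma cell markers 9 were measured, with 7 above the floor on both arrays and a median log2 ratio of 0.73. They went both ways, 6 higher and 3 lower in MZ cells. Sdc1 was at least 5.39-fold lower in MZ cells by its brightest probe set, and its 3 measured probe sets had log2 ratios from -2.43 to -0.32. Derl3 was at least 3.15-fold higher, Prdm1 2.4-fold and Slamf7 1.72-fold higher. Birc3 and Tnfaip3 can be induced quickly in handled cells. Of 23 immediate-early and heat-shock genes, 14 were lower in MZ cells, 1 reached 2-fold upward in them and 0 downward. Their median log2 ratio was -0.21. Over all measured genes 52.2% were lower and the median was -0.03. Lower in MZ cells, as Birc3 was, were Junb, at 56.6 in MZ and 110.0 in FO cells, and Btg2, at 161.9 and 288.1, whose dimmer probe set had a log2 ratio of -1.77. Higher were Atf3, at 246.9 in MZ and 52.6 in FO cells, and Hspa1b, at 115.5 and 61.5. The part of handling in the values above was not tested.

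**Figure D4:**
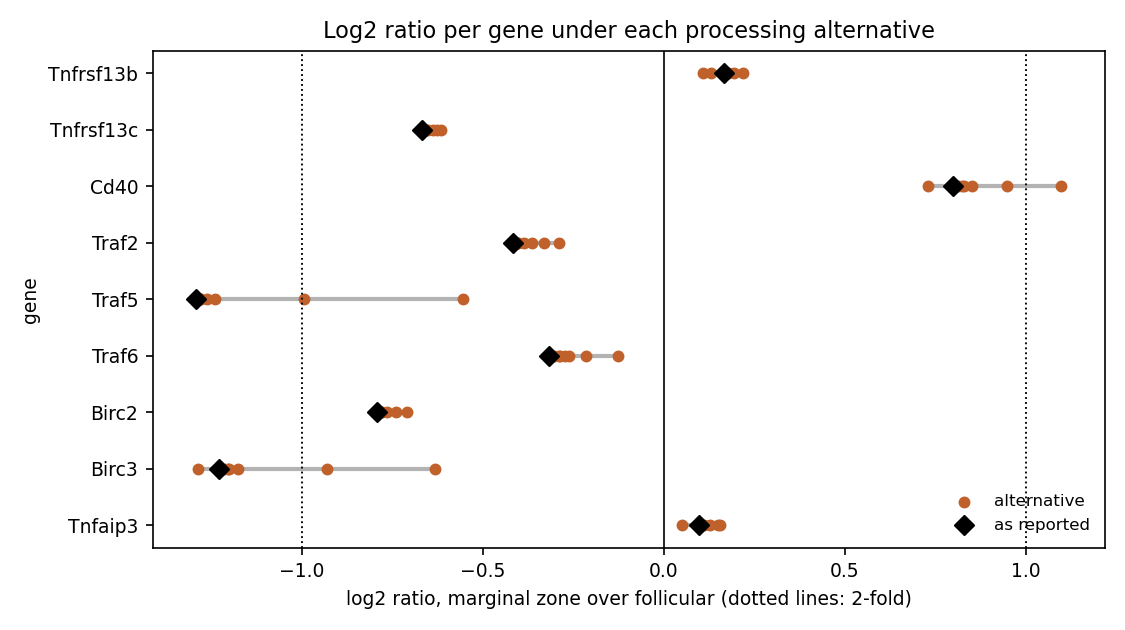
Log2 ratio of MZ over FO signal of each of the 9 genes as reported (diamonds) and under each processing alternative (circles), with grey lines for the range; dotted lines mark 2-fold. Every gene keeps its sign, while Traf5, Birc3 and Cd40 cross the 2-fold line under some alternatives.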

How the data were processed

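The deposited table gave a linear intensity for each probe set, between 0 and 8520.6, made with MAS5 per the submitters' processing notes. The version of MAS5 is not given in the sources used here, nor are its scaling target and detection calls. Per the labels' protocols, about 100 ng of total RNA was labelled in 2 cycles of amplification.

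Each array was scaled to a common 2% trimmed mean, by 0.990 for marginal zone and 1.01 for FO cells. Signals below the median of both arrays, 12.7, were raised to that floor, and a fold against a raised signal is written "at least". Probe sets were named by the platform annotation, 20380 with 1 gene, 691 with several and 1555 unlisted; 20351 of the 20380 were found in RefSeq by Entrez identifier. The brightest measured probe set by mean log2 signal stood for its gene. Genes are named from the largest ratios of each list, up to 6 per pathway list and 4 per marker list, with exceptions marked. The genes and lists were chosen with earlier results of these data known. With 1 array per group, precision is limited by the number of arrays. The code was tested on simulated data. The 12 alternatives changed scaling, floor, probe set rule or threshold. Python 3.11.15, numpy 2.4.6 and pandas 2.3.3 were used.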

Additional observations from a re-analysis of the deposited data

How the results depend on the processing

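No paired analysis was possible because each group had 1 array. Every one of the 9 genes kept the sign of its log2 ratio under each alternative that gave it a value. Log2 ratios ran from -1.29 to -0.55 for Traf5, -1.29 to -0.63 for Birc3, -0.79 to -0.71 for Birc2, -0.67 to -0.62 for Tnfrsf13c and 0.73 to 1.10 for Cd40. The median of the 9 genes ran from -0.43 to -0.13.

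Counts depended on the floor and the threshold. Of the 9 genes, 1 was at least 2-fold higher in FO cells with the floor at the 75th percentile, with the mean over probe sets or with a pseudocount, and 0 by the second brightest probe set, which only 3 of them have. At 1.5-fold 1 was higher in MZ and 4 in FO cells, and at 3-fold 0 and 0. Counts over all genes at these thresholds are not given here. Of all measured genes, 12.8% were as low as Tnfrsf13c, 1.59-fold lower in MZ cells, or lower, and 7.97% as high as Cd40, 1.74-fold higher, or higher. By the second brightest probe set 1, Cd40, was at least 2-fold higher in MZ cells, with an FO signal just above the floor. Pathway genes higher in MZ and in FO cells numbered 9 and 8 with the floor at the 25th percentile, 2 and 1 at the 75th, 14 and 14 with no floor, 1 and 0 by the second brightest probe set, 11 and 16 at 1.5-fold and 1 and 1 at 3-fold. How many pathway genes were measured under each alternative is not given here. Over all genes, the counts at least 2-fold higher in MZ and in FO cells were 338 and 374 of 7695 as reported. They were 1277 and 1389 of 11035 with the floor at the 25th percentile and 125 and 143 of 3907 at the 75th. With no floor they were 1988 and 2086 of 12393, and by the second brightest probe set 119 and 152 of 2622. A higher floor shrinks ratios of dim probe sets by construction, and a lower or absent floor widens them. A lower fold threshold can only raise a count, and a higher one can only lower it. The cause of the other changes was not tested.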

Other observations

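Several pathway genes, chosen after their values were seen, had probe sets that disagreed in direction on the same arrays. The log2 ratios of the 3 probe sets of Xiap, which encodes another inhibitor of apoptosis, ran from -0.67 to 0.04. Those of Cflar, which encodes the caspase-8 regulator FLIP, ran from -0.70 to 0.20, and those of Map3k7, the TAK1 kinase gene, from -0.32 to 0.14. Probe sets of Nfkbia, the IkB-alpha gene, were of 1 sign, with 4 between -0.98 and -0.40, as were the 6 of Mcl1, a survival gene of the Bcl2 family, between -0.79 and -0.55. Both probe sets of Cd86, a costimulatory ligand, were higher in MZ cells, at 0.43 and 1.23. Traf1, a TRAF gene induced by NF-kB, was at 20.6 in MZ cells and below the floor at 6.06 in FO cells, at least 1.62-fold higher in MZ cells.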
